A study of Homo sapiens with 2 samples.

Results

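The genes described here are 10 members of the clotting cascade and of plasminogen activation: F5 (coagulation factor V), F3 (tissue factor), the protease-activated receptor genes F2R and F2RL1, the inhibitors TFPI and TFPI2, the protein C pathway receptors THBD and PROCR, and the urokinase pair PLAU and PLAUR. They were listed by symbol and found by that symbol among the 29972 human genes of the deposited table, where all 10 had a row. The list was drawn up with earlier results from these libraries known, so every difference below is a description and none is tested. The samples were a T-DM1-refractory tumour and a tumour without treatment, 1 library each, both grown from NCI-N87 cells implanted under the skin of nude mice. NCI-N87 is an established human gastric carcinoma line with amplified ERBB2, and T-DM1 is trastuzumab emtansine, a HER2 antibody carrying a maytansine-type microtubule poison, which was given once every 3 weeks over 18 weeks. No replicate tumours were measured, the host mice retain an innate immune system but lack T cells, and neither the dose nor the age of the mice is given in the sources used here.

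Clotting starts when tissue factor on a cell surface binds factor VIIa and the pair activates factor X. Factor Xa, with factor Va as its cofactor, turns prothrombin into thrombin, which cuts fibrinogen, platelet receptors and the receptor PAR1 on many cells. TFPI shuts off the tissue factor complex, while thrombomodulin and the endothelial protein C receptor hand thrombin and protein C together so that activated protein C destroys factor Va. Urokinase, held by its receptor at the cell surface, turns plasminogen into plasmin, the protease that dissolves fibrin. Carcinoma cells are known to carry tissue factor, and urokinase and its receptor are long studied in tumour invasion, whereas factor V in blood comes mainly from the liver.

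The refractory tumour held more RNA than the untreated tumour for both the clot-forming and the clot-limiting members. F5 was 255-fold higher, PLAU 22.0-fold, F2R 17.1-fold, TFPI 5.14-fold, PROCR 5.12-fold, F2RL1 2.90-fold and PLAUR 2.14-fold higher. F3 and THBD differed by 1.40-fold and 1.41-fold, and TFPI2 was close to undetected in both. Levels are given as CPM (expected counts scaled to a common library size with TMM factors), and differences as log2(CPM + 1) of refractory minus untreated. A gene is described where its higher library has at least 1 CPM, and a described gene is called past 2-fold. Of the 10 members, 9 were described, and 7 of these were called higher and 0 lower. Over all 14167 described genes, 1388 (9.80%) were called higher and 1555 lower, together 20.8%. The median difference was 2.21 over the 9 members and 0.03 over all 14167 genes. The members were picked with this contrast in view, so their count is not read against that background. In bulk tumour RNA, more cells of a kind and more RNA per cell cannot be told apart.

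**Figure D1:**
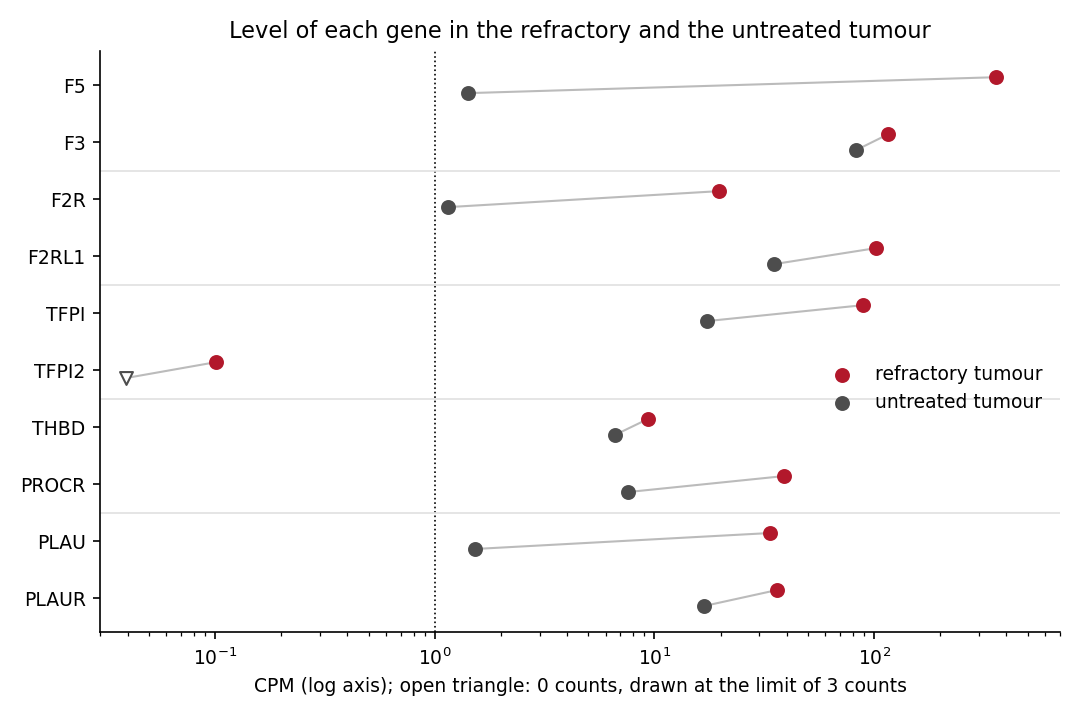
CPM (log axis) of the 10 genes in the refractory tumour (red, upper point of each pair) and in the untreated tumour (grey, lower point), grouped by role, with 1 library per tumour and a dotted line at 1 CPM. The open triangle marks 0 counts of TFPI2 in the untreated tumour, drawn at the limit of 3 counts. F5 spans the widest gap, 360 against 1.41 CPM, while the points of F3 and THBD lie close together.

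The libraries summed to 59902704 expected counts in the refractory tumour and 75722117 in the untreated tumour. At 1 CPM or more stood 13228 genes of the refractory library and 13613 of the untreated library. Ratios of CPM carry exact 95% intervals for 2 Poisson counts, which cover counting error only. Spread between tumours is not covered, because each group has 1 library. Without molecular barcodes some reads can be copies of 1 molecule, and the intervals do not allow for this. A count of 0 allows up to 3 counts, 0.0506 CPM in the refractory and 0.0392 CPM in the untreated library.

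F5 encodes the factor V cofactor, a large secreted protein (chromosome 1, coding span 169514313 to 169586386, GRCh38). It had 21387 counts in the refractory tumour and 108 in the untreated tumour, or 360 CPM against 1.41 CPM. The ratio was 255 (95% interval 211 to 311) and the log2 difference 7.23 (7.06 to 7.39), rank 4 among the 14167 genes. The untreated level lay just above the 1 CPM used to describe a gene. F3, the cell-surface initiator of clotting (chromosome 1, 94530471 to 94541636), had 6884 counts in the refractory tumour and 6329 in the untreated tumour. At 116 CPM against 82.8 CPM its ratio was 1.40 (95% interval 1.35 to 1.45), below the 2-fold limit. The initiator RNA was thus abundant in both tumours, and the cofactor RNA in the refractory tumour.

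The sequence before the transcription start is shown for these 2 genes because one was at the top of the list and the other hardly differed. Both are the 250 bases before the RefSeq start on the minus strand (GRCh38.p14, chr1:169586482-169586731 for F5 and chr1:94541760-94542009 for F3), written 5′ to 3′. Capitals mark the motifs searched on both strands. The hypoxia response core was searched as ACGTG, the AP-1 site as TGANTCA, the TEAD site as GGAATG, the CDX site as TTTATG and the TATA box as TATAAA.
F5: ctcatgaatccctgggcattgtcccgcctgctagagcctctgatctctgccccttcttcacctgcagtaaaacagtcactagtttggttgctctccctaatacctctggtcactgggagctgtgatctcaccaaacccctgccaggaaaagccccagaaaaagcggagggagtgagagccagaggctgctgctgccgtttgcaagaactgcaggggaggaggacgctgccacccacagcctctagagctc
F3: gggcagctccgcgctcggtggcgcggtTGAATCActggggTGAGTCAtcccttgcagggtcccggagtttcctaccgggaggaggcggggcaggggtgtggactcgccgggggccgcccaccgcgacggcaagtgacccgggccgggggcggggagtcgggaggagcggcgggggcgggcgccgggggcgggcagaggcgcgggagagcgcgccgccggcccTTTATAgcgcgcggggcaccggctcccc
The F5 window held none of the 5 motifs, whereas the F3 window held TGAATCA and TGAGTCA, whose first bases lie 223 and 210 bases before the start, and TTTATA, the TATA box letters read from the other strand, 28 bases before it. F3 also had the denser CpG content, with 34 CpG and 78.0% GC against 4 CpG and 56.8% GC for F5. Windows of 8 members were found in the RefSeq table, and F2R and THBD were not matched. AP-1 letters occurred in 3 of the 8 (F3, TFPI2 and PLAUR) and in 6.57% of 35116 promoter windows of that length. ACGTG occurred in 0 of the 8 and in 18.5% of all windows, GGAATG in 1 (F2RL1) and 11.9%, TTTATG in 1 (TFPI2) and 9.64%, and TATAAA in 2 (F3 and PROCR) and 10.7%. No overlap between matches of different motifs occurred in the printed windows. A match is a run of letters and is no measurement of binding.

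The receptors are cut by proteases and are then switched on by their own new amino end, the tethered ligand. F2R encodes PAR1, the main thrombin receptor of many cells (chromosome 5, 76716308 to 76733503), and F2RL1 encodes PAR2, which trypsin-like proteases and the tissue factor complex activate and thrombin does not (chromosome 5, 76819183 to 76833801). The genes lie next to each other, and the codons of their tethered ligands are shown because each receptor carries its own agonist, freed by a cut just before the capitals. The stretches come from GENCODE 29 transcripts (GRCh38, plus strand, chr5:76732331-76732384 for F2R and chr5:76832698-76832751 for F2RL1), with the 18 bases of the ligand in capitals and 6 codons on each side.
F2R: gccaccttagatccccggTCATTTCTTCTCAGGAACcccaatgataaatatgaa
F2RL1: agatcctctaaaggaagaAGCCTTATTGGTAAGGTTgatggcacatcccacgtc
The ligand codons share 6 of 18 bases. F2R had 1165 counts in the refractory tumour and 88 in the untreated tumour, 19.6 CPM against 1.15 CPM, a ratio of 17.1 (95% interval 13.7 to 21.4). F2RL1 had 6040 and 2685 counts in the refractory and the untreated tumour, 101.8 CPM against 35.1 CPM, a ratio of 2.90 (95% interval 2.77 to 3.03). Both were called higher. Per length, F2RL1 remained the more abundant receptor RNA: its deposited FPKM (fragments per length and library size) was 7.04 times that of F2R in the refractory tumour and 41.4 times in the untreated tumour.

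TFPI, the Kunitz-type inhibitor of factor Xa and of the tissue factor complex (chromosome 2, 187466936 to 187503768), was called higher. It had 5304 counts in the refractory tumour and 1329 in the untreated tumour, 89.4 CPM against 17.4 CPM, a ratio of 5.14 (95% interval 4.84 to 5.47). TFPI2, a related inhibitor that acts on plasmin and other matrix-degrading proteases (chromosome 7, 93886820 to 93890678), had 6 counts in the refractory tumour and 0 in the untreated tumour. At 0.101 CPM it stood 2.58-fold above the limit of 0.0392 CPM for 0 counts, which is not a measured ratio. The exact 95% interval of the ratio reached down to 1.52-fold. TFPI2 did not reach 1 CPM and was the 1 member not described. In RNA per length, the initiator F3 stood at 1.80 times the FPKM of TFPI in the refractory tumour and at 6.76 times in the untreated tumour.

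The protein C receptors differed from each other. PROCR, the endothelial protein C receptor, which presents protein C to its activating complex (chromosome 20, 35171175 to 35215903), had 2307 counts in the refractory tumour and 581 in the untreated tumour. Its 38.9 CPM against 7.60 CPM gave a ratio of 5.12 (95% interval 4.67 to 5.61) and a call. THBD, thrombomodulin, which turns thrombin from a clotting enzyme into an activator of protein C (chromosome 20, 23047777 to 23049504), had 553 counts in the refractory tumour and 504 in the untreated tumour. Its 9.32 CPM against 6.59 CPM gave a ratio of 1.41 (95% interval 1.25 to 1.60), which is not a call. PROCR stood at 13.7 times the FPKM of THBD in the refractory tumour and at 3.71 times in the untreated tumour.

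PLAU, the urokinase-type plasminogen activator (chromosome 10, 73911892 to 73916565), had 1982 counts in the refractory tumour and 116 in the untreated tumour. Its 33.4 CPM against 1.52 CPM gave a ratio of 22.0 (95% interval 18.3 to 26.8), and its log2 difference of 3.77 was second among the members, behind F5. PLAUR, the lipid-anchored receptor that holds urokinase on the surface (chromosome 19, 43646457 to 43670120), had 2143 counts in the refractory tumour and 1288 in the untreated tumour. Its 36.1 CPM against 16.8 CPM gave a ratio of 2.14 (95% interval 2.0 to 2.30). On the log2 scale PLAUR was only just called, at 1.06 with an interval of 0.96 to 1.15 that includes the limit of 1. The protease RNA was scarce beside that of its receptor in the untreated tumour and nearer to it in the refractory tumour: PLAU stood at 0.503 times the FPKM of PLAUR in the refractory tumour and at 0.0490 times in the untreated tumour. C10orf55, which overlaps PLAU on the opposite strand, stood at 0.421 CPM in the refractory tumour and 0.0262 CPM in the untreated tumour, and without a stated use of strand the reads of such a pair cannot be told apart. GENCODE 29 places opposite-strand genes over F2R, TFPI, TFPI2 and PROCR as well.

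**Figure D2:**
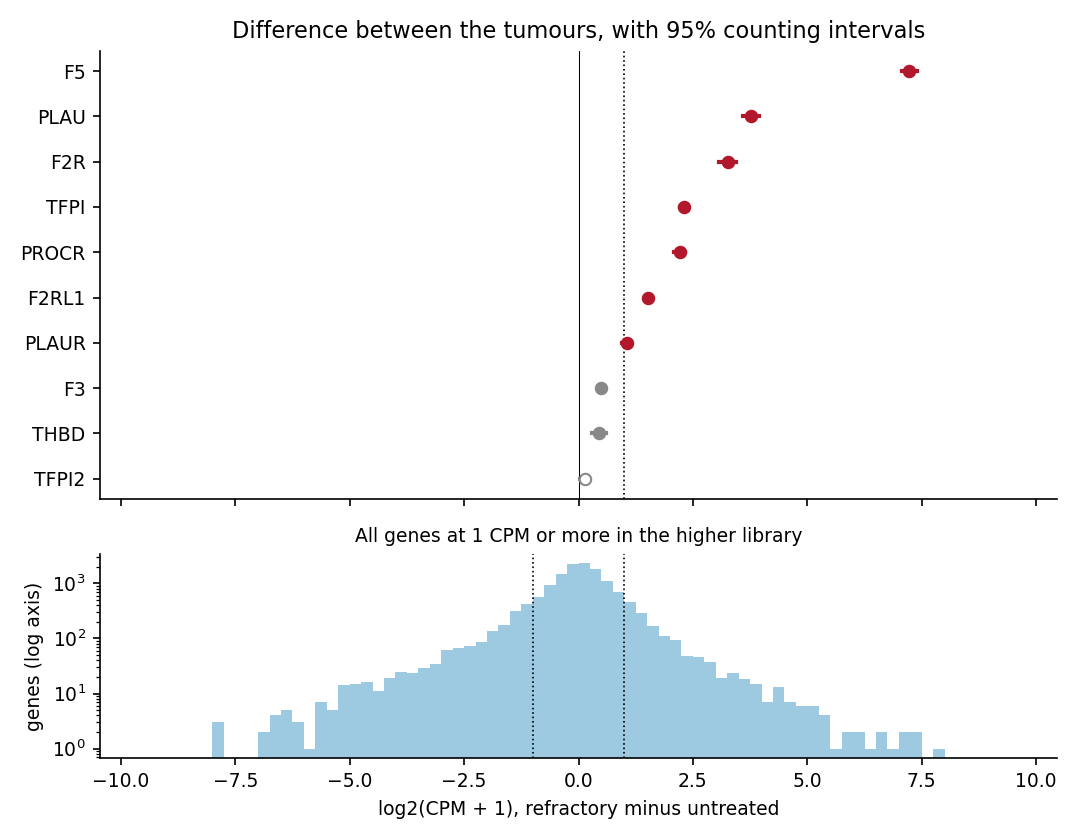
Upper panel, log2(CPM + 1) of the refractory minus the untreated tumour for each gene, with bars for the exact 95% counting interval, red where called higher and open where the gene did not reach 1 CPM. Lower panel, the same difference for all 14167 genes at 1 CPM or more, as a histogram with a log count axis, dotted lines marking 2-fold. F5 lies at 7.23, where few genes lie, and PLAUR at 1.06 sits on the dotted line.

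The order of the members by level per length differed between the tumours. In the refractory tumour the FPKM were 54.8 for F3, 40.2 for F5, 38.9 for F2RL1, 33.8 for PROCR, 31.5 for PLAUR, 30.4 for TFPI, 15.8 for PLAU, 5.53 for F2R, 2.47 for THBD and 0.0482 for TFPI2. In the untreated tumour they were 39.7 for F3, 14.9 for PLAUR, 13.6 for F2RL1, 6.58 for PROCR, 5.87 for TFPI, 1.77 for THBD, 0.730 for PLAU, 0.329 for F2R and 0.160 for F5, with TFPI2 at 0. F3 led in both tumours, while F5 was second in the refractory tumour and ninth in the untreated tumour. F3 stood at 1.36 times the FPKM of F5 in the refractory tumour and at 247 times in the untreated tumour. By counting error alone, the 95% intervals of F5 and F2RL1, of PROCR and PLAUR, and of PLAUR and TFPI overlapped in the refractory tumour. In the untreated tumour those of PLAUR and F2RL1 and those of PROCR and TFPI overlapped. These are RNA levels and do not measure protein at the cell surface or in the tumour fluid.

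**Figure D3:**
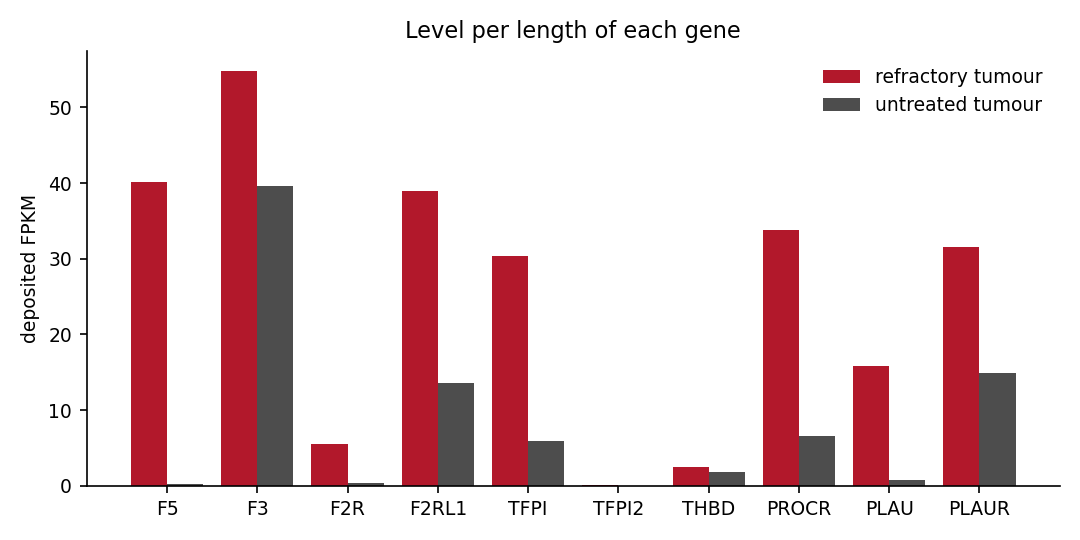
Deposited FPKM of each gene in the refractory tumour (red, left bar) and the untreated tumour (grey, right bar), 1 library each, on a linear axis from 0. In the refractory tumour F3, F5 and F2RL1 reach 54.8, 40.2 and 38.9 FPKM, and in the untreated tumour F3 reaches 39.7 and F5 0.160 FPKM.

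In the authors' deposited table, which sets 1 library against 1, 5 of the 10 genes had a p-value under 0.05 (unadjusted): F5 at 3.65e-08, PLAU at 0.000334, F2R at 0.000830, TFPI at 0.0368 and PROCR at 0.0376. The other members were above it in the authors' deposited table, F2RL1 at 0.163 and PLAUR at 0.313 among them. The p-values of the authors' deposited table come from the same counts that chose the genes and compare these 2 libraries, not the conditions. The share of all genes under 0.05 is not given here, so the number of members under it is not read as a result.

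The wider pathway was taken from 7 lists with 62 genes reported here, of which 39 reached 1 CPM. Among these 39, 6 were called higher and 6 lower, with a median difference of 0.04. Of 15 other coagulation factor genes 5 reached 1 CPM, 0 were called higher and 1 lower, with a median of -0.74. The called gene was F13A1, the A chain of the fibrin-stabilising factor XIII. It had 0 counts in the refractory tumour and 216 in the untreated tumour (2.83 CPM). At the limit of 3 counts for 0 it stood 55.9-fold lower in the refractory tumour, which is not a measured ratio. The exact interval for counting error reached down to 45.0-fold lower. Several partners of factor V and tissue factor are given here although chosen after their values were seen. F2, which encodes prothrombin, had 0 counts in both tumours. F7, whose product is the ligand of tissue factor, had 5 counts in the refractory tumour and 1 in the untreated tumour. F10, the zymogen that the complex activates, had 7 counts in the refractory tumour and 0 in the untreated tumour. F8, the paralog of factor V that serves factor IX, stood at 9.98 CPM in the refractory tumour and 17.3 CPM in the untreated tumour. F5 thus stood at 10.5 times the FPKM of F8 in the refractory tumour and at 0.0232 times in the untreated tumour. The deposited counts and FPKM imply a length of 2.59 kb for F8 in the refractory tumour and 2.53 kb in the untreated tumour. For F5 they imply 8.89 kb in the refractory tumour and 8.90 kb in the untreated tumour. Which F8 transcript its reads came from was not tested.

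Genes for the export and modification of clotting factors had RNA in both tumours. All 5 genes of the vitamin K cycle and of factor V secretion reached 1 CPM, with 0 called and a median of 0.04. LMAN1, the cargo receptor that carries factors V and VIII out of the endoplasmic reticulum, stood at 216 CPM in the refractory tumour and 227 CPM in the untreated tumour. All 7 genes of phosphatidylserine exposure, which supplies the membrane on which factors V and X assemble, also reached 1 CPM with 0 called and a median of 0.27. TMEM30A, the shared subunit of the flippases, stood at 454 CPM in the refractory tumour and 420 CPM in the untreated tumour. Of 7 plasma anticoagulant genes 3 reached 1 CPM, with 2 called higher and 0 lower. PROC, the protein C zymogen, stood at 2.34 CPM in the refractory tumour and 0.0654 CPM in the untreated tumour, a ratio of 35.8 on 139 and 5 counts (95% interval 14.99 to 112.1). PROS1, the protein S cofactor of activated protein C, stood at 145 CPM in the refractory tumour and 57.2 CPM in the untreated tumour, 2.54-fold higher. So the receptor PROCR and the ligand and cofactor genes of that arm were called higher together, and THBD was not called.

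Of the 12 plasmin system genes reported here, 8 reached 1 CPM and 2 were called lower. PLAT, the tissue-type plasminogen activator, differed in the other direction from PLAU, at 1.28 CPM in the refractory tumour and 56.0 CPM in the untreated tumour, 43.7-fold lower (95% interval 34.8 to 55.6). Between the activators, PLAU stood at 35.97 times the FPKM of PLAT in the refractory tumour and at 0.0373 times in the untreated tumour. MRC2, a collagen receptor that associates with the urokinase receptor, stood at 3.62 CPM in the refractory tumour and 8.40 CPM in the untreated tumour, 2.32-fold lower. PLG, which encodes plasminogen and was chosen after its values were seen, had 15 counts in the refractory tumour and 3 in the untreated tumour.

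The receptor list held F2RL2 and F2RL3, relatives of F2R, together with cell-surface and secreted proteases, several of them known to cut these receptors. Of its 11 genes 8 reached 1 CPM, with 4 called higher, 1 lower and a median of 0.88. F2RL2 had 0 counts in both tumours and F2RL3 had 0 in the refractory tumour and 5 in the untreated tumour, both chosen after their values were seen, so F2R and F2RL1 were the only genes of that family to reach 1 CPM. HPN, the membrane serine protease hepsin, stood at 23.0 CPM in the refractory tumour and 0.105 CPM in the untreated tumour, a ratio of 220 on 1364 and 8 counts (95% interval 111 to 510). MMP1, the interstitial collagenase, which can cut PAR1, had 595 counts in the refractory tumour and 2 in the untreated tumour, a ratio of 383 (95% interval 106 to 3173). KLK5, a kallikrein of stratified epithelium, stood at 4.62 CPM in the refractory tumour and 0.144 CPM in the untreated tumour. KLK14, another kallikrein and an activator of PAR2, stood at 0.219 CPM in the refractory tumour and 38.9 CPM in the untreated tumour, 178-fold lower (95% interval 104 to 334). PRSS3, mesotrypsin, stood at 7.69 CPM in the refractory tumour and 3.13 CPM in the untreated tumour, and shares sequence with other trypsinogen genes, so its reads may be divided between them.

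Relatives of factor V that share its A or C domains were not called higher. Of 6 genes 4 reached 1 CPM, with 0 higher, 2 lower and a median of -1.11. HEPHL1, a ferroxidase with A domains, stood at 1.05 CPM in the refractory tumour and 101.2 CPM in the untreated tumour, 96.8-fold lower (95% interval 75.4 to 126). MFGE8, a secreted protein with factor V-type C domains that binds phosphatidylserine, stood at 14.6 CPM in the refractory tumour and 42.6 CPM in the untreated tumour, 2.91-fold lower.

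**Figure D4:**
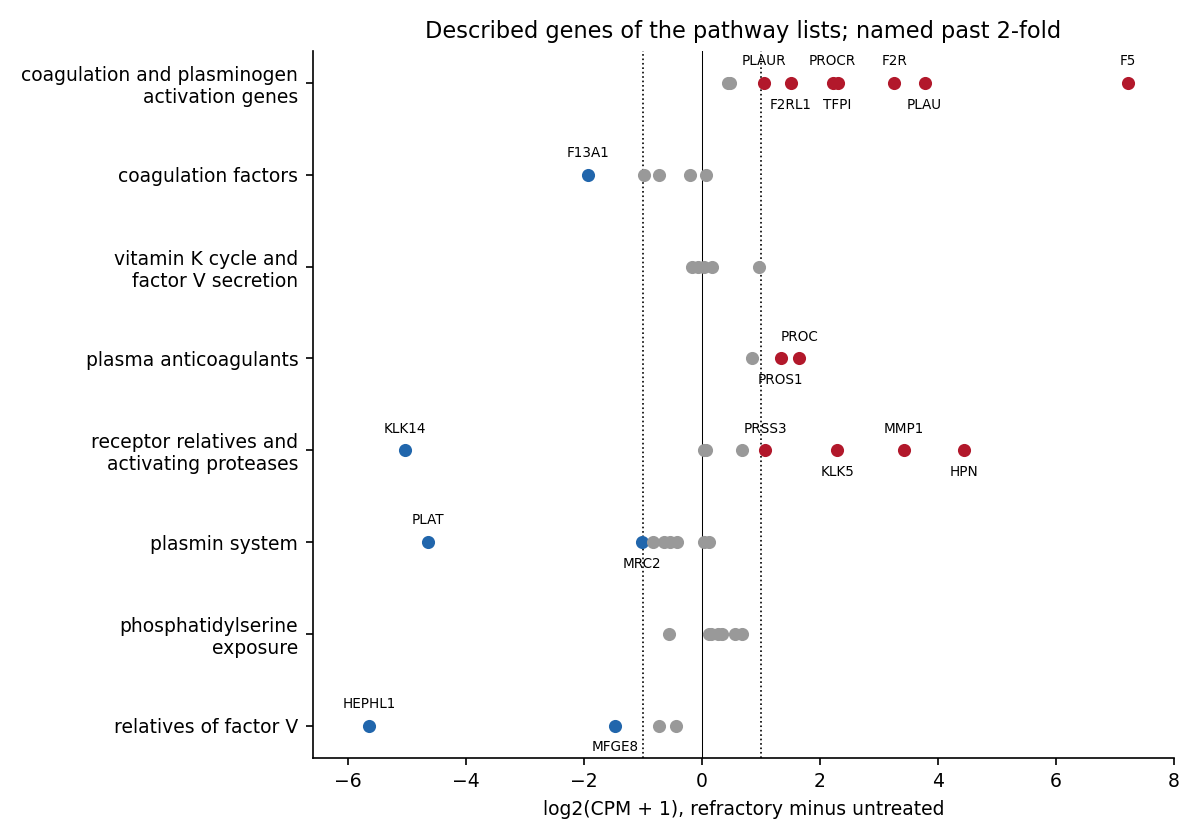
Log2(CPM + 1) of the refractory minus the untreated tumour for each gene that reached 1 CPM, in the 10-gene set (top row, 9 genes) and in the 7 pathway lists, 1 point per gene, with dotted lines at 2-fold. Genes called higher are red, genes called lower are blue, and these are named. F5 lies at 7.23 and PLAU at 3.77, while PLAT lies at -4.64.

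Markers of the labelled line and of other cells were read beside these values. All 8 gastric carcinoma epithelial markers reached 1 CPM, at 189 to 7975 CPM in the refractory tumour and 89.7 to 7267 CPM in the untreated tumour. CEACAM5 was called higher, at 189 CPM in the refractory tumour and 89.7 CPM in the untreated tumour, and the other 7 were not called. Host cells are murine, and only human gene rows were read. Markers of hepatocytes, the usual source of factor V, summed to 84.2 CPM in the refractory tumour and 115.9 CPM in the untreated tumour, of which SERPINA1 made up 82.3 CPM in the refractory tumour and 114 CPM in the untreated tumour. ALB stood at 0.539 CPM in the refractory tumour and 1.62 CPM in the untreated tumour, and 4 of the 10 were at 0 counts in the refractory tumour and 6 in the untreated tumour. In that list 1 gene was called higher, APOH at 60 counts in the refractory tumour and 0 in the untreated tumour. Markers of megakaryocytes, whose platelets carry factor V, summed to 2.44 CPM in the refractory tumour and 3.07 CPM in the untreated tumour, with PF4 and GP9 at 0 counts in both. Endothelial markers summed to 2.22 CPM in the refractory tumour and 5.70 CPM in the untreated tumour, with CDH5 and TIE1 at 0 counts in both. Of the 3 that reached 1 CPM, ROBO4 was called lower, at 0.0674 CPM in the refractory tumour and 2.29 CPM in the untreated tumour. ESAM was not called, at 0.775 CPM in the refractory tumour and 1.69 CPM in the untreated tumour. EGFL7 went the other way and was not called (log2 difference 0.92), at 1.28 CPM in the refractory tumour and 0.209 CPM in the untreated tumour. Fibroblast markers summed to 2.12 CPM in the refractory tumour and 3.02 CPM in the untreated tumour, with COL1A2, COL3A1, DCN and THY1 at 0 counts in both. Macrophage markers summed to 34.3 CPM in the refractory tumour and 4.60 CPM in the untreated tumour. Most of this was CD68, at 29.2 CPM in the refractory tumour and 3.62 CPM in the untreated tumour. Called higher were 2 of the 7, CD68 and ITGAM, the latter at 3.32 CPM in the refractory tumour and 0.419 CPM in the untreated tumour. CD14 stood at 1.43 CPM in the refractory tumour and 0.445 CPM in the untreated tumour. PTPRC had 17 counts in the refractory tumour and 5 in the untreated tumour. AIF1 was at 0 counts in both, CSF1R at 3 counts in the refractory tumour and 0 in the untreated tumour, and CD163 at 1 count in the refractory tumour and 4 in the untreated tumour. The part of macrophage-derived RNA in the values of PLAU, PLAUR and F3, genes that macrophages can also express, was not tested.

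On the chromosome, the genes next to PLAU and TFPI were not called. Over the 10 nearest described genes on each side, the median log2 difference around F5 was -0.21, with 1 of the 20 called higher and 1 lower. SLC19A2, a thiamine transporter gene beside F5, stood at 38.6 CPM in the refractory tumour and 28.1 CPM in the untreated tumour. Around PLAU the median was -0.04 with 0 called higher and 1 lower, beside CAMK2G (log2 difference 0.08) and VCL (0.63). Around TFPI it was -0.26 with 1 higher and 2 lower, beside FAM171B (-0.97) and GULP1 (-0.31). The receptor pair, PROCR, THBD and PLAUR each had a called gene as neighbour. F2R lies between F2RL1 and IQGAP2, a scaffold of the actin cytoskeleton at 51.1 CPM in the refractory tumour and 1.65 CPM in the untreated tumour (4.30). On the far side of F2RL1, AGGF1 stood at 99.0 CPM in the refractory tumour and 106.5 CPM in the untreated tumour. Over the 20 genes around F2R the median was -0.06, with 3 higher and 3 lower. MMP24, a membrane-type metalloprotease gene beside PROCR, stood at 12.4 CPM in the refractory tumour and 1.23 CPM in the untreated tumour (2.58), with EDEM2 on the other side (0.67). Around PROCR 4 of 20 genes were called higher and 0 lower, with a median of 0.25. F3 lay beside ABCD3 (0.11) and LOC102723542 (-0.18), THBD beside FOXA2 (1.91) and NXT1 (0.18), TFPI2 beside CCDC132 (-0.34) and BET1 (0.15), and PLAUR beside CADM4 (-1.80) and SMG9 (0.29).

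**Figure D5:**
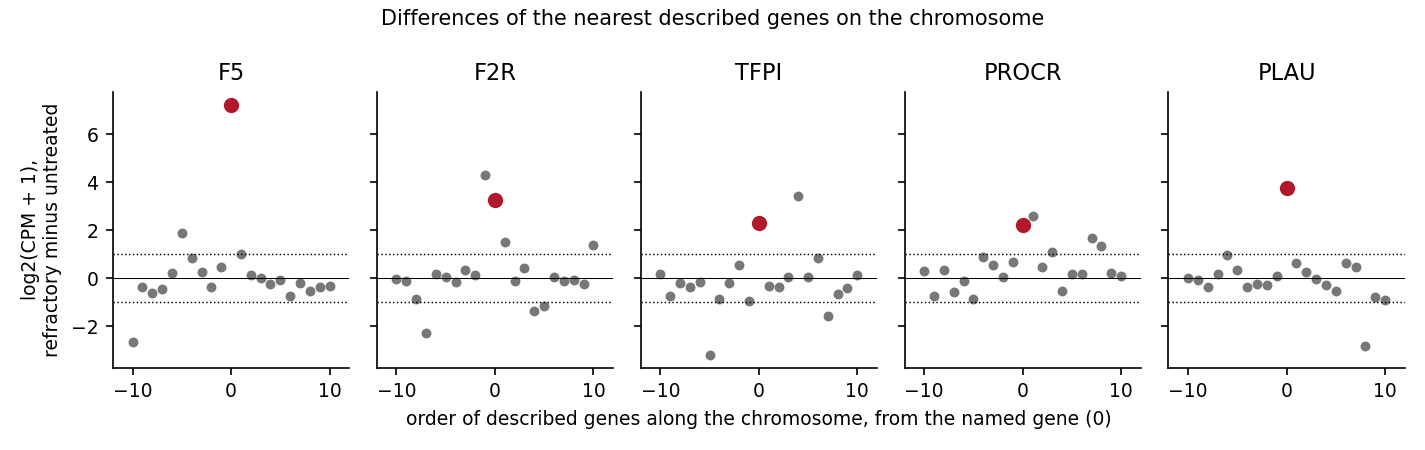
Log2(CPM + 1) of the refractory minus the untreated tumour for 5 genes called higher (red) and for the 10 nearest described genes on each side of each (grey), by their order along the chromosome, with dotted lines at 2-fold. The neighbours of F5 and PLAU lie mostly within 2-fold, while IQGAP2 beside F2R (4.30) and MMP24 beside PROCR (2.58) lie with their red points.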

How the data were processed

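RNA (TruSeq mRNA libraries, per the labels' protocols) of 1 T-DM1-refractory and 1 untreated NCI-N87 tumour was sequenced, and groups were taken from the title and treatment labels. The authors deposited expected counts per gene, not always whole, FPKM, a log2 fold change and a p-value. The submitters' processing notes name edgeR 3.26.8, RSEM 1.2.28, STAR 2.7.0e and bcl2fastq 2.20, and the builds GRCh38 and GRCm38. Not given in the sources used here are their roles, the annotation, the use of strand and the handling of mouse reads. The authors' log2 fold change is positive where the refractory library is higher and differed by at most 0.0194 from the log2 CPM ratio across the 13005 genes above 50 reads in each library. Deposited coding starts are printed counted from 1.

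Expected counts were rounded and scaled with TMM factors (edgeR 4.0.16, R 4.3.3; 0.990 for the refractory and 1.01 for the untreated library). A gene was described at 1 CPM or more in the higher library and called at 2-fold on log2(CPM + 1), which understates low genes. With 1 library per group no test was made. The calling code was run on simulated Poisson counts without spread between tumours, which checks the code and not the calls made here. Members and lists were chosen with earlier results of these data known. Named genes are the members, all pathway genes past 2-fold, or the most abundant gene of a list without any, the nearest described gene on each side of a member, and the 3 genes nearest to F5 in level. Genes that fall under this rule and are not named are not reported here, and the counts of the plasmin list are over its other 12 genes. Alternatives were 3 other scalings, pseudocounts of 0.1 and 5 CPM, no filter or 10 CPM, FPKM with 1 added, and limits of 1.5-fold and 4-fold. Sequences are from RefSeq (GRCh38.p14) and GENCODE 29.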

Additional observations from a re-analysis of the deposited data

How the results depend on the processing

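F5, PLAU, F2R, TFPI and PROCR were called higher under the main settings and all 10 alternatives. F2RL1 lost its call only at the 4-fold limit, and PLAUR at that limit and with 5 CPM added (log2 0.91). F3 and THBD were never called, and no member was called lower. The count of members called higher was therefore 7 except with 5 CPM added (6) and at 4-fold (5). The log2 difference of F5 was lowest with deposited FPKM (5.15), 5.83 with 5 CPM added and highest with 0.1 CPM added (7.90). In the FPKM setting 1 was added to each FPKM, and F5 had 0.160 FPKM in the untreated tumour. Without the added 1, the FPKM ratio of F5 was 251, beside a CPM ratio of 255. The members' median was 2.34 with 0.1 CPM added, 1.80 with 5 CPM added and 1.86 with no filter, which takes in TFPI2. Over all genes, the main settings gave 1388 higher and 1555 lower. With 5 CPM added 821 were higher and 840 lower, and with 0.1 CPM added 1683 and 1916. The 10 CPM filter left 978 higher and 921 lower, and deposited FPKM 1165 and 1205. The 1.5-fold limit gave 2755 higher and 2677 lower, and the 4-fold limit 360 and 504. Pathway genes called higher numbered 3 with 5 CPM added, 3 with the 10 CPM filter, 10 at 1.5-fold and 3 at 4-fold, against 6. Those called lower numbered 4 with 5 CPM added, with the 10 CPM filter and with deposited FPKM. At 1.5-fold 10 were called lower and at 4-fold 3, against 6 under the main settings. The 3 other scalings changed no member's call. Depth limits TFPI2, F7, F10 and PLG, which had 15 counts or fewer, and F2, which had 0 in both. No paired analysis was possible because each group has 1 library, and for the same reason no library could be left out.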

Other observations

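Over the 2 libraries, the genes with levels nearest to those of F5 on the log2(CPM + 1) scale were CTSE, CLDN2 and HPGD, at distances of 0.51, 0.57 and 0.83. CTSE, the gastric aspartic protease cathepsin E, stood at 499 CPM in the refractory tumour and 1.78 CPM in the untreated tumour. CLDN2, a claudin of leaky epithelia, stood at 243 CPM in the refractory tumour and 1.39 CPM in the untreated tumour. HPGD, the enzyme that degrades prostaglandins, stood at 244 CPM in the refractory tumour and 0.575 CPM in the untreated tumour. With 2 points per gene this likeness is one of level alone.

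The gene length implied by the deposited counts and FPKM gives a second readout. Over 12994 genes with at least 50 reads in both libraries the median difference of refractory minus untreated was -10.01 bases, and F5, F2R, F2RL1 and THBD had that same offset. TFPI differed by -77.6 bases (2914 bases in the refractory tumour and 2991 in the untreated tumour), with 9.18% of genes more negative, and PROCR by -27.5 bases (1138 bases in the refractory tumour and 1166 in the untreated tumour), with 19.0% of genes more negative. Whether the mix of transcripts differed was not tested. The PLAU count of the refractory tumour, 1981.95 before rounding, was the only count of a member that was not whole.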
